A study of Mus musculus with 9 samples.

Results

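RING1B can be taken out of mouse embryonic stem cells (mESCs) in 2 ways, by deleting the protein or by leaving the protein in place without its ubiquitin ligase activity, and the comparison described here sets these mutants directly against each other. The 3 arrays of Ring1B-/- cells (knockout, KO) were compared with the 3 arrays of cells homozygous for the I53A allele (I53A), which together are 6 of the 9 arrays of the series, and the remaining 3 arrays are of wild-type (WT) cells. Every probe of the series' expression table was tested anew for KO against I53A, and genes on chromosome 11 were counted apart from all others. The question put by this contrast is which transcripts depended on the presence of RING1B protein beyond its catalytic activity.

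All 3 lines were E14Tg2a mESCs, a male line of strain 129P2/OlaHsd, grown on gelatin in serum with LIF, and the mutants were untreated. In KO cells exon 3 of Rnf2, the gene for RING1B, had been removed on both alleles by Cre, which leaves a transcript with a premature stop codon. In I53A cells both endogenous alleles carried alanine in place of isoleucine 53, a change known to abolish ligase activity while the protein still enters PRC1. Each mutant was derived by repeated targeting of the same parental cells and stands for a line grown from selected clones, and no independent lines were described, so genotype and clone cannot be told apart. The study's methods call the 3 arrays of a group biological replicates without describing how their cultures were kept apart, so p-values here measure the spread between replicates of 1 line.

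As background, RING1B is the main RING-type E3 ligase of Polycomb repressive complex PRC1 in mESCs, where it monoubiquitinates histone H2A. Canonical PRC1 holds a CBX protein that reads H3K27me3, the mark laid down by PRC2, and compacts chromatin at developmental genes such as the Hox clusters. Variant PRC1 complexes hold RYBP or YAF2 instead, and the variant with PCGF6, MGA, MAX, E2F6 and L3MBTL2 is known for silencing germline genes in mESCs.

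Polyadenylated RNA was measured on single-colour arrays, and signals are given below as log2 of the quantile-normalised intensity of a probe, so a difference of 1 is a 2-fold difference. On a single array 45.4% to 57.4% of these probes exceeded background clearly, pairs of arrays of a group correlated at r = 0.9543 to 0.9804 across the 12036 probes above background on all 9, and the median SD of a probe within a group was 0.22 in WT and 0.27 in both mutants. A probe was called when the adjusted p of the limma contrast was under 0.05 and the difference was over 2-fold. Of the 6 embryonic stem cell markers measured none was called, and their mean signal lay at 12.07 to 12.21 in KO, 11.54 to 12.01 in I53A and 11.99 to 12.37 in WT. Markers of other cell types gave 1 call among 23, Gata6 of the primitive endoderm set, whose partners Sox7, Pdgfra and Dab2 were not above background on any of the 6 arrays. The mean signal of the 6 primitive endoderm markers was 4.12 to 4.77 in KO against 3.55 to 3.75 in I53A, that of 7 trophoblast markers 7.69 to 7.79 against 8.03 to 8.22, that of 6 fibroblast markers 5.54 to 5.73 against 5.49 to 6.05, and that of 4 neural markers 6.11 to 6.47 against 6.1 to 6.37. The part of these cell types in the results below was not tested.

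Rnf2 itself (chr1:151469398-151500991, mm10) was measured by 1 probe. Its signal was 7.35, 7.92 and 8.08 in KO replicates 1, 2 and 3, and 8.69, 9.1 and 8.59 in I53A replicates 1, 2 and 3. Every KO array was thus below every I53A array, by 1.01 ± 0.26 (SE) on average, but the contrast did not pass the threshold (adjusted p = 0.112). A transcript is still made from the deleted allele, and whether the probe lies in exon 3 was not established here, so this value does not check the labels. Transcripts of its paralogue Ring1 differed by -0.10 ± 0.52 (SE), with overlapping arrays.

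Ring1B-/- cells had more transcripts called above I53A cells than below them, and the genes furthest apart were Pramel6, Gm9 and Ifi27. Off chromosome 11, 217 probes for 196 genes were higher in KO, which is 0.782% of the 27756 tested, and 111 probes for 102 genes were lower, which is 0.4%. On chromosome 11, 72 probes for 66 genes were higher, 2.98% of 2414, and none was lower (0%), although limma gave 48 lower and 495 higher there when p was left unadjusted, at 0.05. Off chromosome 11 the same unadjusted limit gave 1413 higher and 1468 lower probes, so the excess of higher probes there was confined to those called. The KO and I53A arrays did not overlap for any of the 400 called probes. The call itself favours such separation, so this is no separate support, and the share over all probes was not counted. The median difference of the called probes was 1.92 for those higher off chromosome 11, -1.39 for those lower and 1.80 for those higher on chromosome 11. In 84, 21 and 24 of these probes the dimmer group was below background on all of its arrays, and in 6, 5 and 1 both groups were, so the fitted size of these differences is not a measurement. With such signals raised to the background limit of their array, the medians were 1.80, -1.36 and 1.58, and 83 of the 217 higher probes and 10 of the 111 lower probes off chromosome 11 still differed by over 4-fold. Called genes whose dimmer group was below background are given below by that limit, as at least so many fold, whereas medians over lists are of fitted differences.

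**Figure D1:**
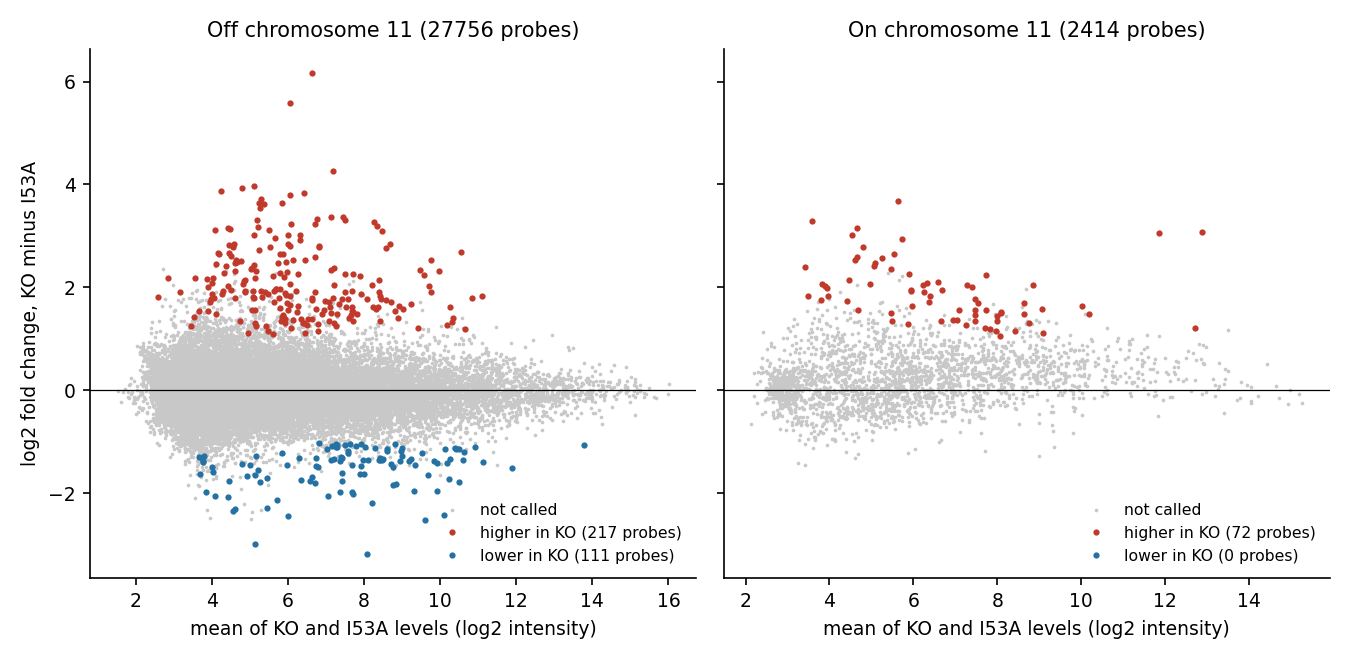
Difference between KO and I53A (y axis, log2) against mean signal (x axis, log2) for all 30170 probes tested, 1 point per probe, with chromosome 11 in a panel of its own and called probes coloured by direction. Called probes higher in KO, 217 off and 72 on chromosome 11, reach a fitted difference of 6.16, while the 111 lower probes reach -3.18.

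The arrays lay on 2 slides, with KO 2, KO 3, I53A 1 and I53A 2 on the first and KO 1 and I53A 3 on the second, so the contrast could be read within each. Within slide 1, where 2 arrays stand against 2, only 52 higher and 2 lower probes off chromosome 11 and 9 higher probes on it were called. On slide 2, which was not used for those calls, all 63 went the same way. Among all probes off chromosome 11, 46.5% were higher and 53.5% lower in KO on that slide, and on chromosome 11 62.7% were higher. Of the 52 higher probes off chromosome 11, 49 differed by over 2-fold between the single KO and I53A arrays, against 5.15% of all probes off it. The number of lower probes depended most on the arrays: it fell to between 29 and 72 when any 1 of the 9 arrays was left out, whereas 113 (without KO 2) to 194 higher probes off chromosome 11 were then called.

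The gene furthest apart was Pramel6 (chr2:87506565-87510865, mm10), a member of the PRAME-like family that is active in the early embryo and germ line. Its signal was 9.91, 9.79 and 9.45 in KO replicates 1, 2 and 3 and 3.55, 3.16 and 3.94 in I53A, where no array was above background. The groups were far apart, by at least 57.8-fold (adjusted p = 1.2e-05). Gm9, an X-linked predicted gene, followed at 8.59, 8.73 and 9.22 in KO against 3.36, 2.84 and 3.61 in I53A, at least 34.7-fold (adjusted p = 2.33e-05). Both were also below background in WT.

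The third was Ifi27, an interferon-inducible gene of the mitochondrial membrane, at 9.68, 9.4 and 8.88 in KO and 4.94, 5.04 and 5.16 in I53A, a difference of 4.27 ± 0.25 (SE) (adjusted p = 4.73e-05). The next genes off chromosome 11 all had adjusted p of 0.00743 or less and no overlapping arrays. Several were below background on every I53A array, among them Glipr1, a secreted cysteine-rich protein (at least 12.9-fold higher in KO), Srgn, the proteoglycan serglycin (at least 12.4-fold), Pnma5, a paraneoplastic antigen gene of the X chromosome (at least 10.6-fold), Defb42, a beta-defensin (at least 9.89-fold), and Serpinb1a, a protease inhibitor (at least 9.32-fold). A second probe of Defb42, below background on every array, differed by 0.22 (adjusted p = 0.871). Ly6c1, a lipid-anchored surface protein measured in both mutants, differed by 3.36. H19, the imprinted non-coding RNA made from the maternal allele, was higher by 5 of its 6 probes, and the probe with the largest difference read 7.68, 7.59 and 7.77 in KO against 4.7, 4.34 and 4.3 in I53A, at least 9.39-fold (adjusted p = 0.000706). Khdc3, part of the maternal complex of the oocyte, was the least even of them in I53A, at 6.5, 5.99 and 7.71 against 9.71, 9.72 and 10.35 in KO (3.20 ± 0.40 SE, adjusted p = 0.00428). C130026I21Rik, below background in I53A by its leading probe, was called by only 2 of its 5 probes, and Gm4567 and Gm8300 differed by 3.26 and 3.24. Calls for all 14 of these genes were kept with each array left out in turn.

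**Figure D2:**
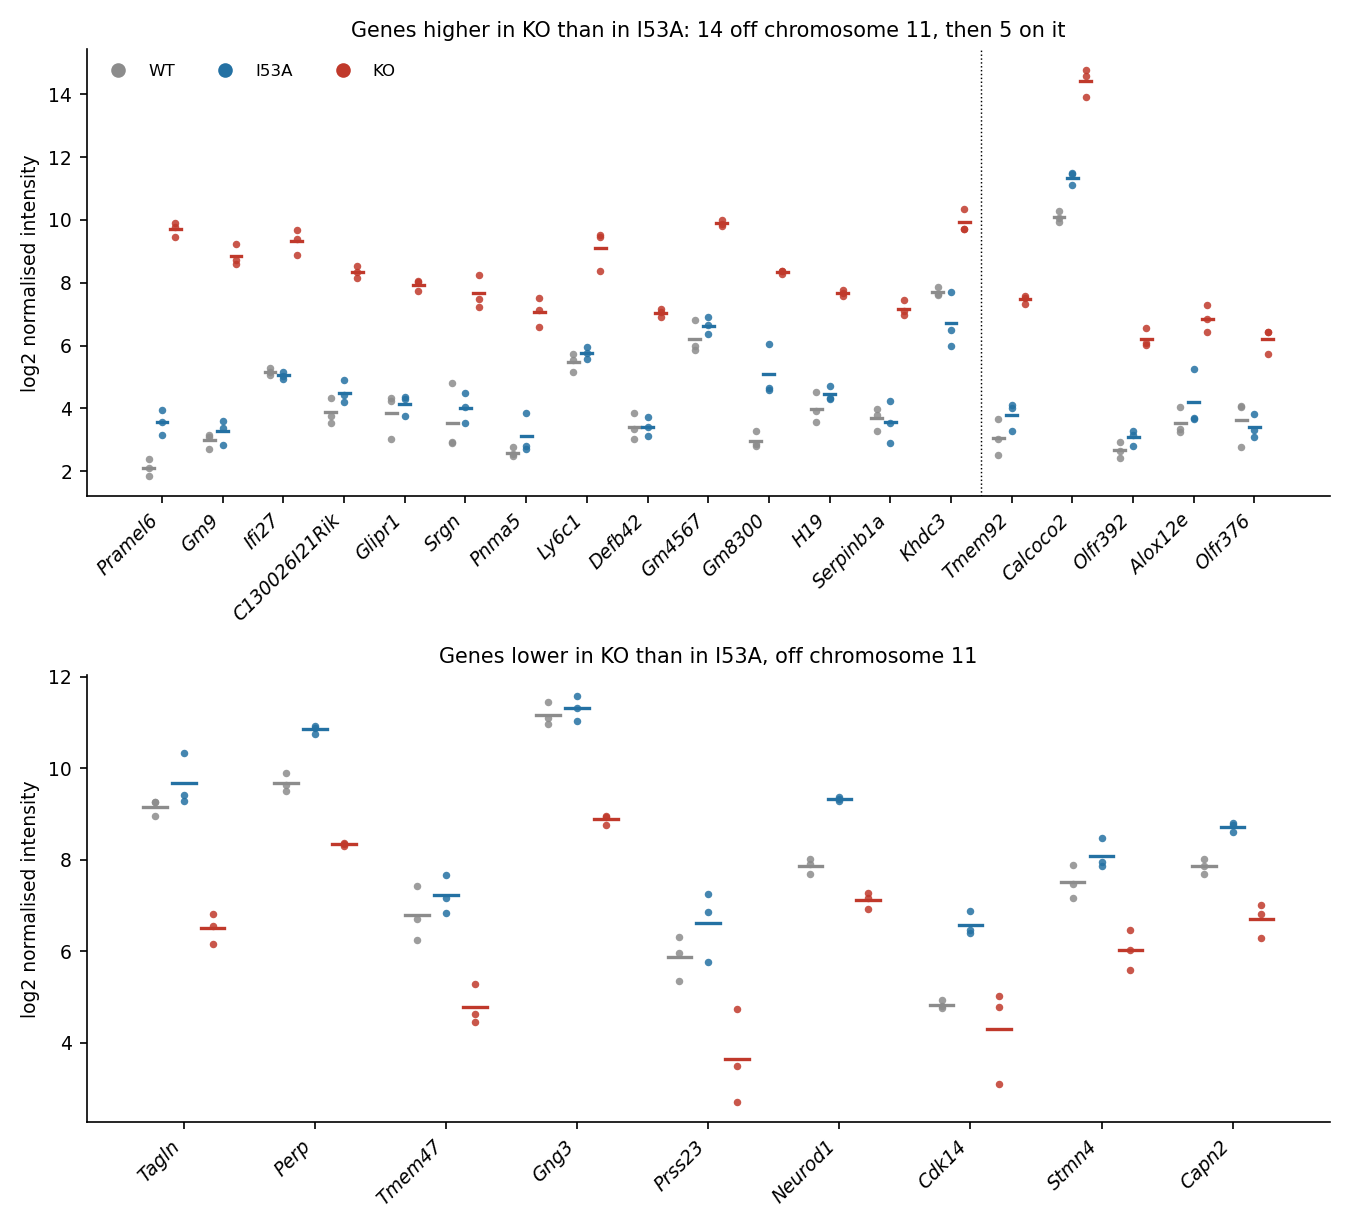
Signal on each array (log2 normalised intensity) of the genes with the largest differences, 14 higher off chromosome 11 and 5 on it above, 9 lower below. Points are arrays, 3 per group, and bars are group means. KO arrays stand apart from I53A arrays for every gene shown, as for Pramel6 at 9.45 to 9.91 against 3.16 to 3.94, and WT lies near I53A for most.

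Genes that mark the 2-cell stage embryo, and the rare cells in mESC cultures that resemble it, were the list most raised in KO. The lists were written with earlier results of these data known, so this rank and the counts below are a description and no separate support. Of the 19 such genes measured, 10 were higher and none lower, against 1.08% of all 21719 genes called higher and 0.396% called lower when each gene was read by its brightest probe. These shares of all genes are the background for the calls in each list below. The median difference over the 19 was 1.72, against -0.02 over all genes. In bulk RNA, more cells in this state and more RNA per cell cannot be told apart. After Pramel6 and Gm8300, the higher members included Gm21319 (3.02), Pramel7 (1.72) and Arg2 (1.38), and, with I53A below background, Tmem92 on chromosome 11 (at least 10.6-fold), Tdpoz4 (at least 7.65-fold), Usp17la (at least 3.61-fold) and Tdpoz2 (at least 2.47-fold), some of them close copies of neighbouring genes whose transcripts a probe may share. Gm21319 lost its call without KO 1, KO 3 or I53A 2, when its adjusted p reached 0.0749.

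Gm2022 gave one of the clearest orders of the 3 lines, at 10.11, 9.75 and 10.04 in KO, 6.92, 7.03 and 7.65 in I53A and a mean of 2.73 in WT. Zscan4a, the gene that names this state, read a mean of 8.78 in KO, 6.65 in I53A and 4.03 in WT, but its difference of 2.13 between the mutants did not pass (adjusted p = 0.19). The list was also not uniform, since Eif1a, Zfp750, Tdpoz1 and Zfp352 differed by -0.19 to 0.31. Looked at after their values were seen, 6 of 22 Pramel genes, 3 of 6 Tdpoz genes and 3 of 10 Rhox genes, a homeobox cluster of the X chromosome, were called higher and none lower.

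Germline and meiotic genes were higher in KO in 11 of 70 cases, with none lower, against 1.08% and 0.396% of all genes. Off chromosome 11 lay 9 of the 11 called. The median difference was 0.38, and 0.33 without members on chromosome 11. Stra8, which admits germ cells to meiosis, read 8.21, 7.57 and 7.53 in KO and 4.07, 4.89 and 5.59 in I53A, of which 1 array was above background (2.92 ± 0.41 SE, adjusted p = 0.00718). Smc1b, a cohesin subunit of meiosis, was at 7.31, 7.92 and 7.98 against 4.96, 5.11 and 5.52 (2.54 ± 0.25 SE, adjusted p = 0.00139). The testis tubulin Tuba3b was at 8.16, 7.79 and 8.04 against 5.49, 5.31 and 5.41 (2.59 ± 0.39 SE, adjusted p = 0.0101, 0.0516 without I53A 2). These groups did not overlap in any of the 3 genes.

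Also higher were the synaptonemal complex gene Tex12 (1.96), Tuba3a (1.91), the transcription factor Sohlh2 (1.35) and, on chromosome 11, Tex19.1 (1.63) and Meioc (1.45). With I53A below background, the X-linked peptidase gene Usp26 was at least 4.79-fold higher, the RNA-binding protein Dazl at least 4.34-fold and the piRNA factor Asz1 at least 3.16-fold. Usp26 kept its sign but lost its call without KO 2, KO 3, I53A 1 or I53A 2 (adjusted p up to 0.1). Most of the list did not pass, among them the germ cell helicase Ddx4 (0.67), the recombinase Dmc1 (0.64), Mael (0.39) and the synaptonemal proteins Sycp1 (0.10) and Sycp3 (-0.59).

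Promoters of germline genes are shown because PCGF6-PRC1 carries E2F6 and the MGA-MAX pair, whose sites are GCGGGAA and the E-box CACGTG. The lines below give the 250 bases before the annotated start in RefSeq (GRCm38.p6), read toward the gene, with either motif in capitals. TTCCCGC is GCGGGAA on the other strand, and the palindrome CACGTG and GCGGGAA do not overlap in these windows. Smc1b lies on the minus strand at chr15:85131958-85132207, Tex12 on the minus strand at chr9:50561269-50561518, Tuba3b on the plus strand at chr6:145615713-145615962 and Stra8 on the plus strand at chr6:34920698-34920947.
Smc1b: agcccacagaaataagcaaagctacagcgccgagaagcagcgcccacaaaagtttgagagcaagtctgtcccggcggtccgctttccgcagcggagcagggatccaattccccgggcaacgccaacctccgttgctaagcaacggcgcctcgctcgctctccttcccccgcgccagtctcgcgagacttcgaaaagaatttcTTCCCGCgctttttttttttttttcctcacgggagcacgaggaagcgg
Tex12: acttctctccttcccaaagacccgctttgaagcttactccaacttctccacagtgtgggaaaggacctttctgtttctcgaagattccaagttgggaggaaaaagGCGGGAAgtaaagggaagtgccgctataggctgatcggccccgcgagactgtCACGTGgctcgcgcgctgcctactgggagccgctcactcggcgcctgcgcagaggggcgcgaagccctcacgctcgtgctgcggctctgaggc
Tuba3b: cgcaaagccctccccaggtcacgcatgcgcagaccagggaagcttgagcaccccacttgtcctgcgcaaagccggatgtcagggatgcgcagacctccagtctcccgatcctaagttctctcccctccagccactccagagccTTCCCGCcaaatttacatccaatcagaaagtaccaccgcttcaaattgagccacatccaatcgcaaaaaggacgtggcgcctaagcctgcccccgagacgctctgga
Stra8: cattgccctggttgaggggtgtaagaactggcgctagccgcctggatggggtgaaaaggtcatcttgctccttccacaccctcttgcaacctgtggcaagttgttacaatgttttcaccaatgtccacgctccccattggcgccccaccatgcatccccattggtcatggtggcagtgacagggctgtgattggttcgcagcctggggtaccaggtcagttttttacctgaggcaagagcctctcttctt
Smc1b and Tuba3b hold 1 GCGGGAA each, Tex12 holds both motifs and Stra8 holds neither.

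Over windows of 300 bases, from 250 before the start to 50 after it, either motif was found in 16% of the 15272 tested genes with a promoter in the table. Among germline genes called higher by any probe 5 of 11 held either one, all of them GCGGGAA, and among germline genes not called 25 of 50 did. Over all genes higher in KO the share was 13.6% off chromosome 11 and 18.8% on it, and over genes lower in KO it was 10.1%. A match is a run of letters and not an occupied site.

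Interferon-stimulated genes were higher in KO in 11 of 53 cases and lower in none, against 1.08% and 0.396% of all genes. Among the 11 called, 7 were off chromosome 11. The median difference was 0.36, and 0.24 without the 8 members on chromosome 11. Beside Ifi27, the antiviral oligoadenylate synthetase Oas1a was at 7.41, 7.09 and 7.09 in KO and 4.2, 4.74 and 4.7 in I53A, below background on all 3 (at least 6.28-fold, adjusted p = 0.00073). Sp140, a nuclear body protein, was at 7.45, 6.8 and 6.71 against 4.46, 4.21 and 4.88 by 1 of its 3 probes (at least 5.55-fold, adjusted p = 0.00205), and the others were not called. Xaf1 of chromosome 11 was at 6.62, 6.73 and 6.26 against 4.26, 3.3 and 4.36 (at least 4.91-fold, adjusted p = 0.00623). The sensor Zbp1 (2.21), Oasl2 (at least 3.29-fold), Oas2 (at least 2.02-fold, with 1 KO array above background) and the nuclease Isg20 (1.87) also passed. So did Ifi35 (2.05) and the GTPases Igtp (1.92) and Irgm1 (1.49), which lie on chromosome 11.

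Many standard members of the response did not. Differences were -0.70 for Ifit3, -0.32 for Irf7, 0.24 for Usp18 and 0.70 for Isg15, and the receptor gene Ddx58, at 1.41, had an adjusted p of 0.121. The neighbouring group of 15 MHC class I and immunoproteasome genes had no call by limma in either direction and a median of 0.26. When p was left unadjusted, at 0.05, 5 of the 15 were higher and 1 lower, against 6.39% and 5.35% of all 21719 genes. After their values were seen, 5 of 11 members of the Oas family were counted as higher, including Oas1f at 6.74, 7.45 and 7.2 in KO against 3.93, 3.74 and 4.85 in I53A.

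Endoderm genes, which include the extracellular matrix and lipid carriers of the primitive and visceral endoderm, went both ways. Of 42 measured, 5 were higher and 2 lower (median 0.33), against 1.08% and 0.396% of all genes. The transcription factor Gata6 was at 6.55, 7.01 and 7.07 in KO against 4.76, 5.46 and 4.86 in I53A, where 1 array was above background (1.85 ± 0.33 SE, adjusted p = 0.0273). The call of Gata6 was lost without KO 2, KO 3, I53A 1 or I53A 3 (adjusted p up to 0.11). The laminin chain Lama1 (2.14), the collagen Col4a1 (1.78), the retinol carrier Rbp4 (2.32) and Srgn were higher, whereas Apoe (-1.06) and Spink1 (-1.49) were lower. The calls of Lama1 and Rbp4 were lost with 5 and 7 of the 9 arrays left out in turn (adjusted p up to 0.0804 and 0.132). Gata4 (1.34), Sox17 (1.03) and Foxa2 (1.08) did not pass, with adjusted p of 0.125 to 0.596.

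Pluripotency genes went both ways, with 3 of 36 higher and 2 lower, against 1.08% and 0.396% of all genes. Their median was 0.06. Pou5f1 was at 13.46, 13.28 and 12.97 in KO and 13.73, 13.6 and 13.68 in I53A (-0.44 ± 0.22 SE, adjusted p = 0.5), Sox2 overlapped between the groups (-0.30 ± 0.24 SE) and Nanog was at 13.03, 13.79 and 13.61 in KO and 12.44 and 12.37 on the 2 I53A arrays with a value (1.07 ± 0.34 SE, adjusted p = 0.239). For Nanog the fit ran without I53A 3 and WT 3, whose spots were outliers. The T-box factor Tbx3 (1.58), the F-box gene Fbxo15 (1.32) and Prdm14 (1.09) were higher, and Dppa4 (-1.22, by 1 of its 2 probes) and Fgf5 (at least 3.46-fold) were lower. Of these, Dppa4 lost its call with each of the 9 arrays left out (adjusted p 0.0503 to 0.158), Prdm14 with 8, Tbx3 and Fbxo15 with 5 and Fgf5 with 4.

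Both betaine-homocysteine methyltransferases, which return a methyl group to homocysteine, were higher among the 15 genes of the methionine cycle. Bhmt was even within each group, at 6.75, 6.68 and 6.85 in KO and 2.59, 3.17 and 2.72 in I53A, below background on all 3 I53A arrays, which makes it at least 8.73-fold higher (adjusted p = 4.64e-05). Its neighbour Bhmt2 was at 6.92, 7.5 and 7.08 against 5.09, 4.57 and 6.06 (1.93 ± 0.39 SE, adjusted p = 0.044), and this call held only without I53A 3 among the 9 arrays left out. The methyl donor enzyme Mat2a (0.23) and the synthase Mtr (0.51) did not pass, and neither did Dmgdh next in the pathway (1.40, adjusted p = 0.0845).

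Genes called lower in KO were fewer and nearer to I53A, and the contractile and actin-linked targets of serum response factor (SRF) led them. Tagln (chr9:45929628-45936058, mm10), the actin-binding protein transgelin, was at 6.54, 6.15 and 6.82 in KO and 9.29, 10.34 and 9.41 in I53A, a difference of -3.18 ± 0.31 (SE) (adjusted p = 0.00114). Of 22 smooth muscle and SRF target genes 5 were lower and none higher, with a median of -0.74. At an unadjusted p under 0.05, 13 of the 22 were lower and 1 higher, where 5.35% and 6.39% of all genes were. The other called members were the matrix protein Thbs1, below background on every KO array (at least 2.92-fold), the myosin light chain Myl9, at 9.68, 9.42 and 9.28 against 10.63, 10.9 and 11.11 (-1.42 ± 0.22 SE, adjusted p = 0.0142), and the tropomyosins Tpm1 (-1.37, with 2 of 6 probes called) and Tpm2 (-1.15). Acta1 (-1.03, adjusted p = 0.0558), Acta2 (-0.85), Flna (-1.08) and the early gene Junb (-1.04) fell short of the threshold, while Srf itself was at 0.81 (adjusted p = 0.698) and Fos at 0.28.

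With 1 array left out, Tagln stayed called each time, Myl9 lost its call without KO 2, KO 3 or I53A 2 (adjusted p up to 0.0613), Thbs1 kept it only without WT 2 or WT 3 and Tpm1 only without WT 2. The cytoplasmic actin Actb differed by -0.28 (adjusted p = 0.729), and none of the 17 housekeeping genes was called, with 1 lower at an unadjusted p under 0.05.

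Genes of FGF and ERK signalling are ligands, ETS factors and feedback inhibitors of the pathway that moves mESCs toward differentiation. They were lower in KO in 4 of 21 cases and higher in none, against 0.396% and 1.08% of all genes. Their median was -0.15. The phosphatase Dusp6 was at 9.33, 9.65 and 9.77 in KO and 10.55, 11.19 and 11.03 in I53A (-1.34 ± 0.24 SE, adjusted p = 0.0273). The inhibitor Spry1 was at 7.29, 7.44 and 7.44 against 8.42, 8.45 and 8.46 (-1.05 ± 0.19 SE, adjusted p = 0.0288). Spred1, called by only 1 of its 3 probes, was lower by 1.32 on the log2 scale (adjusted p = 0.0178). The ligand Fgf5, below background on every KO array, was lower by at least 3.46-fold. Spry2, at -0.96, had an adjusted p of 0.0462 and missed only the 2-fold limit. The ligand Fgf4 (0.41) and the ETS factor Etv5 (-0.14) did not pass, nor did Etv4 of chromosome 11 (1.96, adjusted p = 0.308).

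These were calls near the threshold. Spry1 lost its call with each of the 9 arrays left out (adjusted p 0.0525 to 0.101), Dusp6 kept it only without WT 2 or I53A 1, Spred1 lost it without KO 1, KO 3 or any I53A array, and Fgf5 lost it without KO 1, KO 3, I53A 1 or I53A 3. Fgf5 and Dusp6 stood nearer to KO than to I53A in WT, with Fgf5 at a mean of 4.38 in WT, 4.37 in KO and 6.16 in I53A.

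Targets of p53 gave 2 lower genes of 26 and none higher, with a median of -0.43. At an unadjusted p under 0.05, 11 of the 26 were lower and none higher, where 5.35% and 6.39% of all genes were. Against WT the list median was 0.25 in KO and 0.60 in I53A, so neither mutant lay below WT by this median. Perp, a membrane protein of desmosomes, was at 8.29, 8.33 and 8.37 in KO and 10.92, 10.88 and 10.74 in I53A, the tightest of the larger differences (-2.52 ± 0.20 SE, adjusted p = 0.000508). Phlda3, which restrains AKT, was lower by 1.15 on the log2 scale (adjusted p = 0.0341), a call kept only without WT 3. Against WT, Phlda3 differed by 0.20 in KO and 1.35 in I53A, and Perp by -1.34 in KO and 1.17 in I53A. Mdm2 (-1.28), Bbc3 (-1.01) and Trp53inp1 (-0.94) had adjusted p of 0.0601 to 0.135, and Cdkn1a, the cell cycle inhibitor p21, differed by -0.06.

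Other large falls off chromosome 11 were in unrelated genes. The neurogenic factor Neurod1 was at 7.17, 7.28 and 6.92 in KO and 9.33, 9.27 and 9.37 in I53A (-2.20 ± 0.21 SE, adjusted p = 0.00101), and I53A was itself above WT by 1.45 (adjusted p = 0.0222). Its other probe, below background on every array, differed by -0.46 between the mutants (adjusted p = 0.689). The G protein subunit Gng3 was at 8.76, 8.96 and 8.92 against 11.02, 11.31 and 11.58 (-2.43 ± 0.23 SE, adjusted p = 0.00112). Tmem47 (at least 5.42-fold lower), the microtubule regulator Stmn4 (-2.06, and -0.90 by a probe that did not pass) and the calpain Capn2 (-2.02) kept their calls with each array left out. The protease Prss23 (-2.99) lost its call without KO 1, KO 3, I53A 1 or I53A 3 (adjusted p up to 0.1). The kinase Cdk14 was called by 1 of 3 probes (at least 4.22-fold lower, adjusted p = 0.0341) and only without KO 1 or KO 3 among the 9 arrays left out. Its probe above background on all arrays differed by 0.12 (adjusted p = 0.953).

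Id2, a BMP target that blocks basic helix-loop-helix factors, was at 7.21, 7.38 and 6.97 in KO and 8.91, 8.77 and 8.74 in I53A (-1.62 ± 0.22 SE, adjusted p = 0.00606). Adk, the adenosine kinase that clears a by-product of methylation, was lower by 5 of 7 probes, with differences of -1.51 to -1.98. Only 6 of the 102 lower genes and 22 of the 262 higher genes had 2 or more probes called, and no gene had probes called in both directions.

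Among the Polycomb genes themselves few transcripts differed. Variant PRC1 subunits gave no call in 25 by limma (median 0.10, 2 higher at an unadjusted p under 0.05), with Rybp at 0.09 ± 0.25 (SE), L3mbtl2 at 0.09, Pcgf6 at 0.26, Mga at 0.42 and E2f6 at 0.52. Canonical PRC1 gave 2 of 12 higher, among them Scml2 of the X chromosome (2.49 ± 0.41 SE, adjusted p = 0.0178), while Cbx7 (-0.24) and Phc1 (-0.27) did not pass and Pcgf2, the gene for MEL18, overlapped between the groups (0.37 ± 0.44 SE). Only 1 of 3 Scml2 probes was called, and it lost its call without KO 1, KO 3, I53A 1 or I53A 2 (adjusted p up to 0.0742).

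The PRC2 subunit Suz12, also on chromosome 11, was at 9.07, 8.34 and 8.14 in KO and 6.74, 6.93 and 7.24 in I53A (1.55 ± 0.29 SE, adjusted p = 0.0326), a call kept only without WT 3 or KO 3. Its partners Ezh2 (-0.22 ± 0.30 SE) and Eed (-0.10) did not pass, while Ezh1 of chromosome 11, at 1.08, had an adjusted p of 0.0657. The H2A deubiquitinases and their partners, 15 genes, had no call by limma, and none at an unadjusted p under 0.05.

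Hox genes, classic targets of canonical PRC1, had 2 of 37 higher and none lower, with a median of 0.33. At an unadjusted p under 0.05, 12 of the 37 were higher and none lower, where 6.39% and 5.35% of all genes were. Chromosome 11 holds 10 of the 37, and 495 of its 2414 probes were higher at that limit. The 12 were not split by chromosome, and the median without chromosome 11 was 0.32. Hoxc9 was at 6.34, 6.93 and 6.75 in KO and 5.48, 5.54 and 5.37 in I53A (1.21 ± 0.23 SE, adjusted p = 0.0331). Hoxb13 of chromosome 11 was at 5.26, 5.82 and 4.8 against 3.99, 3.17 and 3.48, which were all below background (at least 2.55-fold, adjusted p = 0.0414). Hoxd10 did not overlap between the groups, at 7.05, 6.89 and 6.95 against 6.08, 6.43 and 5.71, yet did not pass (0.89 ± 0.26 SE, adjusted p = 0.174). The call of Hoxc9 was kept only without WT 2 or KO 1, and that of Hoxb13 only without WT 2.

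Over 151 developmental regulators, most of which are Polycomb targets in mESCs, 3 were higher and 1 lower, with a median of 0.08. These calls were 1.99% and 0.662% of the list, against 1.08% and 0.396% of all genes. At an unadjusted p under 0.05, 21 of the 151 were higher and 7 lower, where 6.39% and 5.35% of all genes were. The genes called higher were Gata6, Prdm14 and the homeobox gene Meis2, and the gene called lower was Neurod1. Meis2 was at 5.92, 6.17 and 5.65 in KO against 2.84, 3.28 and 4.1 in I53A, all below background (at least 4.46-fold, adjusted p = 0.0103, 0.0537 without I53A 2). Cdkn2a, the Polycomb-silenced locus of p16 and p19, overlapped between the mutants, at 11.7, 10.24 and 12.22 against 10.24, 11.73 and 10.92.

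**Figure D3:**
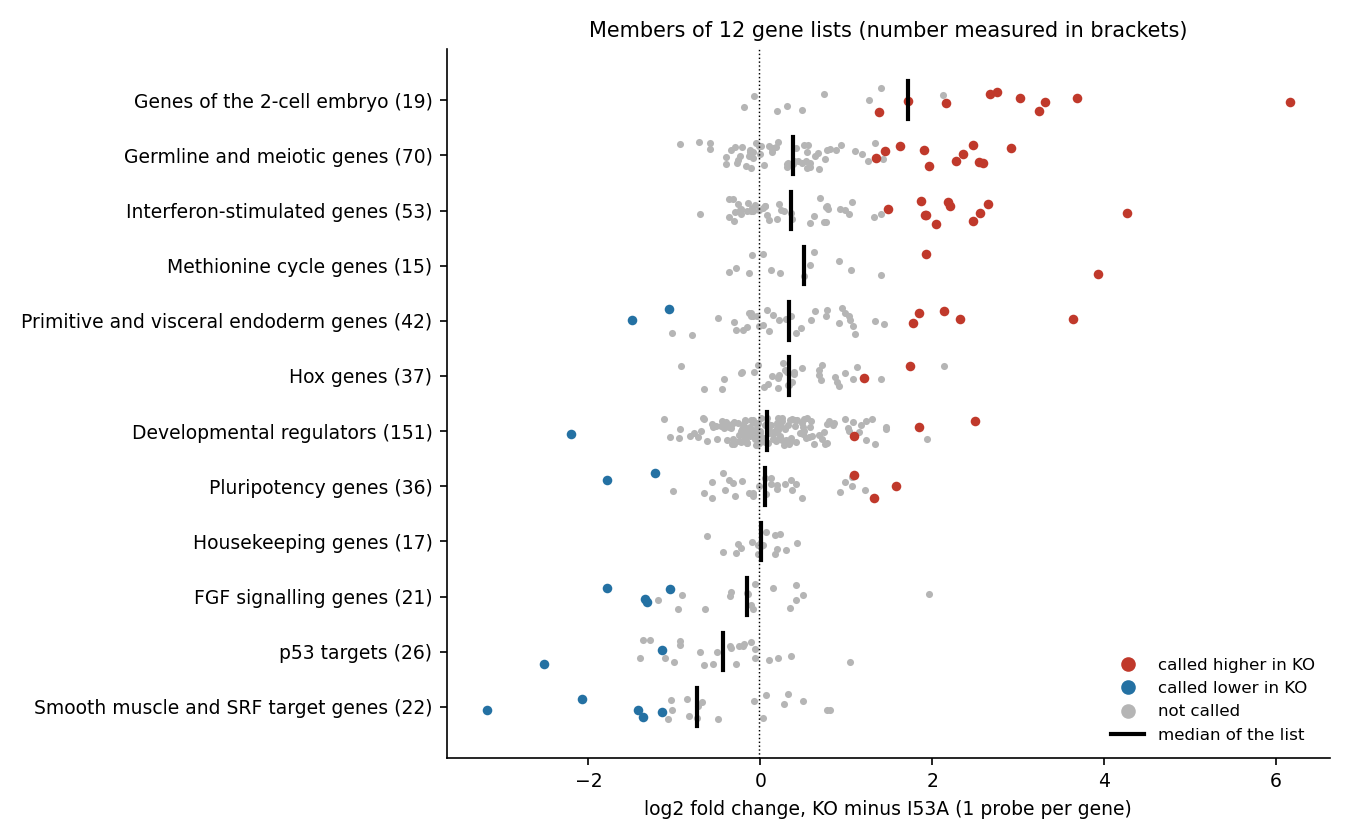
Difference between KO and I53A (x axis, log2) of every measured gene in 12 of the gene lists, 1 point per gene and 1 line of points per list, with called genes coloured by direction and a bar at each median. The 2-cell list has the highest median at 1.72 with 10 of 19 genes higher, and the smooth muscle and SRF list the lowest at -0.74 with 5 of 22 lower.

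Several groups had few calls or none. No gene was called among 9 DNA methylation enzymes, 16 genes of H3K9 methylation, 30 ATF4 and stress genes, 10 cell cycle inhibitors, 22 cholesterol synthesis genes, 11 heat shock genes, 29 mesoderm genes or 25 fibroblast genes by limma, with 1 probe read per gene. At an unadjusted p under 0.05 the DNA methylation enzymes had 1 lower, the H3K9 genes 3 higher, the ATF4 and stress genes 4 higher and 2 lower, the cholesterol genes 1 in each direction, the mesoderm genes 3 in each direction and the fibroblast genes 2 lower, and the cell cycle inhibitors and heat shock genes none. Over all genes 6.39% were higher and 5.35% lower at that limit. Several of these counts were above those shares, such as the 3 of 16 H3K9 genes. Among 57 imprinted genes H19 and Ddc (1.52) were higher and Impact (-1.05) was lower, and the calls of Ddc and Impact were lost with 8 and 9 of the 9 arrays left out. Trophoblast genes gave 1 of 28 in each direction, Id2 and the homeobox gene Rhox6 (1.93), where 1.08% of all genes were called higher and 0.396% lower. Wnt genes gave only the ligand Wnt4, lower by 1.15 on the log2 scale and lost with each array left out. In the glycolysis and hypoxia list only the collagen hydroxylase P4ha2 of chromosome 11 was called (1.95 ± 0.28 SE, adjusted p = 0.00832).

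Chromosome 11 as a whole was brighter in KO. The median difference over its 1139 probes above background on all 6 arrays was 0.31, which is 1.24-fold, and 76.3% of them were above 0, whereas the medians of the other 18 autosomes lay between -0.09 and 0.05. The share of probes called higher was 2.98% there and 0.439% to 1.16% on the others. The median signal of chromosome 11 minus that of other autosomes was 0.512, 0.469 and 0.5 on KO arrays 1, 2 and 3 and 0.062, 0.056 and 0.064 on I53A arrays. Every KO array was thus above every I53A array, by 0.433 on average, and an exact two-sided permutation test over the 20 splits of the 6 arrays gave p = 0.1, the smallest it can give.

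The shift ran along the chromosome. In windows of 20 Mb from its start to its end the medians were 0.34, 0.33, 0.24, 0.36, 0.22, 0.32 and 0.42, over 51 to 276 probes each. When the median of chromosome 11 was subtracted, 40 probes remained higher there and 8 were lower, so the calls on this chromosome hold a shared part as well as differences of single genes. The number of copies of chromosome 11 in these lines was not measured, its part in the shift was not tested, and clone and genotype cannot be told apart for it.

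**Figure D4:**
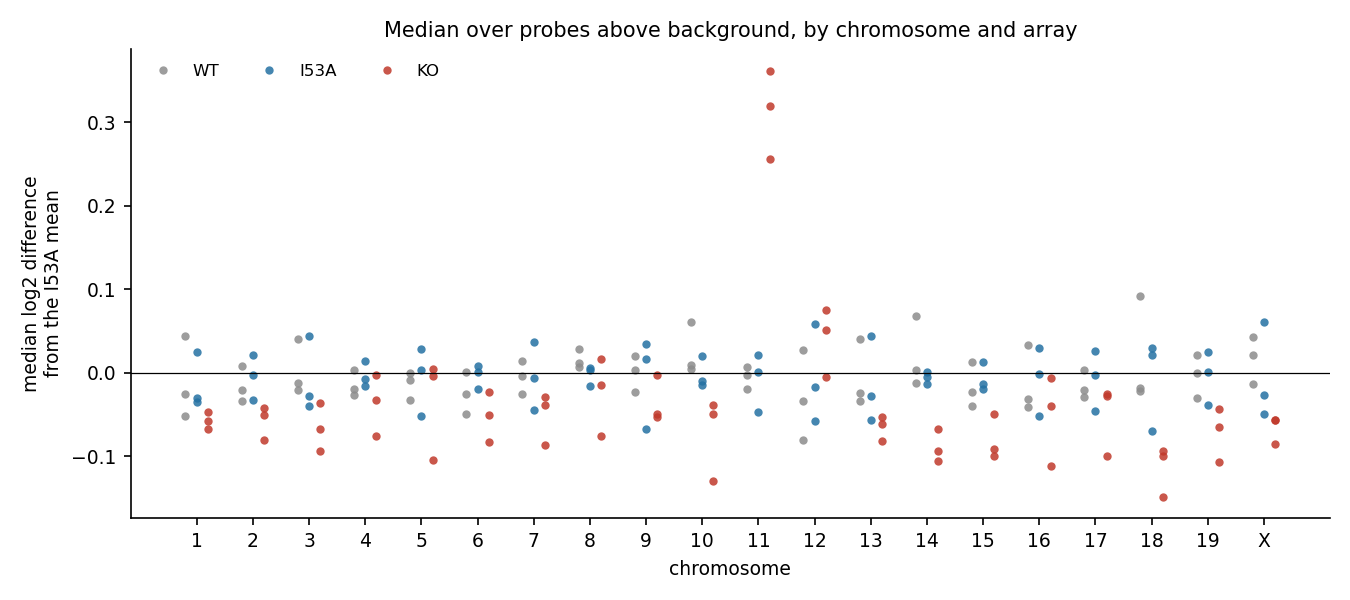
Median deviation of each chromosome's probes from their mean over I53A arrays (y axis, log2), per array, by chromosome (x axis), for probes above background. On chromosome 11 the 3 KO arrays lie at 0.256 to 0.362, above all other autosomes, while I53A and WT arrays lie near 0.

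Genes of chromosome 11 far above the shared shift were led by Tmem92, of the 2-cell list. It was at 7.33, 7.52 and 7.59 in KO against 4.02, 3.29 and 4.1 in I53A, at least 10.6-fold (adjusted p = 0.00073). Calcoco2 (chr11:96098916-96124560, mm10), a receptor of selective autophagy, followed at 14.58, 13.92 and 14.79 against 11.1, 11.47 and 11.48 (3.08 ± 0.27 SE, adjusted p = 0.000728), and its other probe differed by 3.06. The groups did not overlap for either gene.

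The olfactory receptor genes Olfr392 (at least 6.01-fold) and Olfr376 (at least 5.59-fold) and the lipoxygenase Alox12e (at least 5.67-fold) were the next by the same rule. Over all 1006 olfactory receptor genes these 2 were the only ones called higher and the median was -0.07. Alox12e lost its call without KO 2, KO 3, I53A 1 or I53A 2 (adjusted p up to 0.0807). Tex19.1 (chr11:121146143-121148314, mm10), a germline gene near the end of the chromosome, had the most even arrays, at 10.87, 10.86 and 10.8 in KO and 9.22, 9.24 and 9.18 in I53A (1.63 ± 0.19 SE, adjusted p = 0.00271).

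WT cells stood nearer to I53A than to KO for most of the called probes. Among the 217 probes higher in KO off chromosome 11, WT was nearer to I53A in 207 (95.4%), and among the 111 lower ones in 86 (77.5%), whereas it was nearer to I53A in 58.9% of all 30170 probes. On chromosome 11 it was nearer in 68 of 72. The median KO minus WT difference of the higher probes off chromosome 11 was 2.26 and that of I53A minus WT 0.26, and for lower probes these were -1.28 and 0.24. WT arrays entered the calls only through the shared spread, and no test was made of these shares. In 148 of the 217 higher probes the WT mean was lower still than that of I53A, and the share over all probes was not counted. In 84 of the 217, I53A was below background on all its arrays, so the order of WT and I53A there is not a measurement. For Gm2022 and Bhmt2 the mean of I53A lay between, though I53A against WT did not pass for Bhmt2 (1.89, adjusted p = 0.0948). I53A also lay between for Tex19.1 on chromosome 11.

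**Figure D5:**
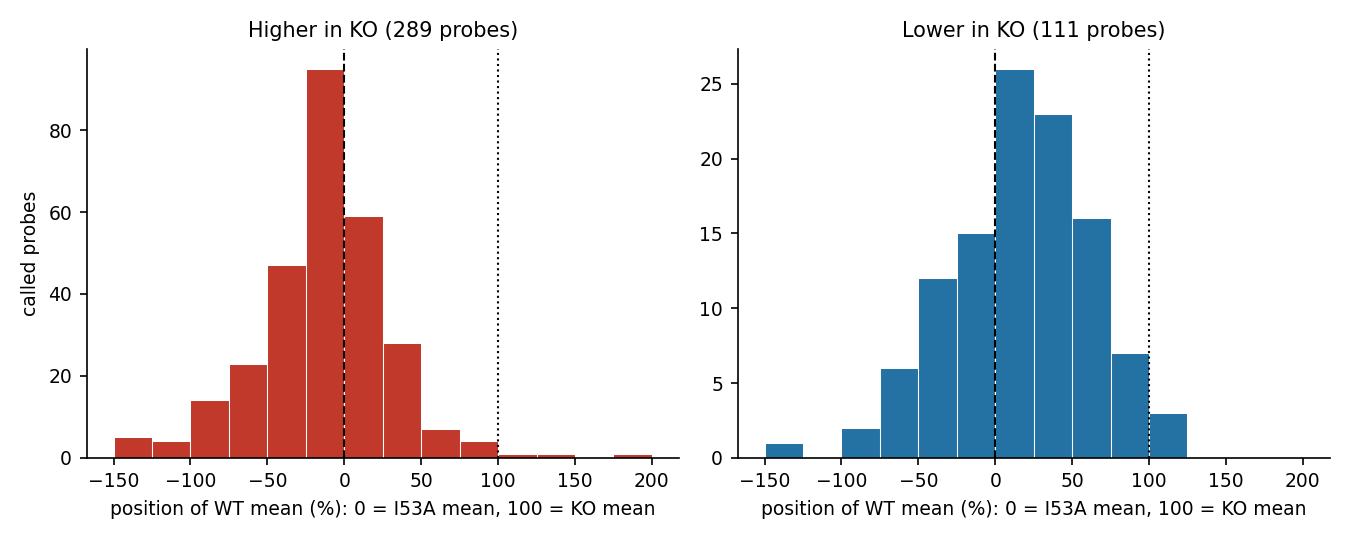
Position of the WT mean between I53A (0%) and KO (100%) as counts of called probes (y axis) per bin of position (x axis, percent), for the 289 higher probes of all chromosomes and the 111 lower ones. Values beyond the plotted range are drawn in the end bins. The higher probes centre near or below 0%, with a median of -12.7% off chromosome 11 and -8.52% on it, and the lower ones at 18.1%.

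The exceptions were few among higher probes and more common among lower ones. WT was nearer to KO in 10 higher probes off chromosome 11, among them those for Prdm14, Ffar4, Liph and the coagulation inhibitor Tfpi, and in 25 lower probes, among them those for Neurod1, Cdk14, Fgf5, Dusp6, Phlda3, Hes6 and Wnt4. For Prdm14 the mean was lower in I53A than in WT by 1.13 on the log2 scale, with an adjusted p of 0.0682 for that contrast, and KO differed from WT by -0.04.

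The clearest exception was Eif2s3y, a translation initiation factor gene of the Y chromosome. It was at 6.02, 6.04 and 5.9 in KO and 2.69, 3.1 and 2.74 in I53A, below background on all 3, and at 7.13, 6.99 and 7.35 in WT. KO was at least 5.12-fold above I53A (adjusted p = 0.000187), and I53A was also below WT (adjusted p = 4.96e-05). KO was itself below WT, with a difference of -1.17 (adjusted p = 0.015). The other 7 Y-linked genes of the table were not called and gave little to compare, since Ddx3y, Zfy1 and Kdm5d were below background on all 6 mutant arrays, Uty on all 3 KO arrays, and Sry and Zfy2 read 5.09 to 5.50 as group means in both mutants. Whether the I53A line had kept its Y chromosome was not tested.

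The array also held 25511 probes that the series' table left out, and genes of several of the same lists were called among them. Adjusted over these probes, 143 were higher in KO (0.561%) and 20 lower (0.0784%), and in 138 of the 143 WT was nearer to I53A. Many belong to gene families of near-identical copies, whose transcripts such probes may share. Xlr3b, an X-linked lymphocyte-regulated gene of germ cells, had the largest named difference, at 11.65, 11.25 and 11.44 in KO and 5.29, 6.33 and 7.32 in I53A (5.13 ± 0.44 SE, adjusted p = 0.000285). Rhox5 was at 12.63, 13.18 and 13.04 against 10.63, 10.94 and 10.15 (2.37 ± 0.29 SE, adjusted p = 0.0025).

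Of 13 genes of the 2-cell list with such a probe, 8 were higher, with a median of 2.05 against -0.01 over the 3011 named genes there. Zscan4f separated all 3 lines, at 11.01, 10.91 and 10.21 in KO, 8.85, 8.45 and 8.59 in I53A and 3.35, 3.56 and 3.72 in WT (2.08 ± 0.28 SE for KO against I53A, adjusted p = 0.00566). Zscan4b, Tcstv3, Tdpoz3, Zfp352, Gm4340, Gm8300 and AF067061 were also higher, and Zfp352 thus passed by a probe outside the table and not by its probe in it. The interferon genes Oas1a, Xaf1 and Zbp1, of 11 with such a probe, were called there again by other probes.

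The largest fall of all named probes was outside the table too. Cd99, a surface glycoprotein of adhesion, was at 6.27, 4.82 and 6.59 in KO and 9.81, 11.22 and 10.7 in I53A, with 8.13, 8.58 and 8.86 in WT (-4.69 ± 0.49 SE, adjusted p = 0.000927), so that the mutants lay on either side of WT. The ephrin ligand Efna5 was at 6.86, 6.85 and 6.9 in KO against 9.12, 8.69 and 9.28 in I53A (-2.16 ± 0.26 SE, adjusted p = 0.0026). For neither gene did the groups overlap.

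Genes higher in KO off chromosome 11 were mostly protein-coding, 169 of 196, and 18 (9.18%) lay on the X chromosome. Among all genes tested, those of chromosome 11 included, 4.23% lay there. The X-linked ones included Gm9, Pnma5, Usp26, Scml2 and Rhox6. Of the 102 lower genes 97 were protein-coding and 4 (3.92%) X-linked. The X chromosome as a whole was not shifted, with a median difference of -0.07 over its probes above background.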

How the data were processed

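Single-colour arrays (Agilent SurePrint G3 Mouse) of 3 WT, 3 KO and 3 I53A samples were scanned on a NimbleGen scanner, and the authors extracted spots with Agilent Feature Extraction 11.5.1.1. The deposited scanner files hold background-subtracted processed intensity per spot, and the deposited series table holds the authors' quantile-normalised log2 values with genes placed on mm10. Columns of the authors' own log2 fold changes and p-values in that table were not used.

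Here control and outlier spots were dropped, log2 processed intensities of repeated probes were averaged and arrays were quantile-normalised over 55681 probes. All 30170 series-table probes were fitted with limma 3.58.1 in R 4.3.3, with 1 mean per group over all 9 arrays, 6 residual degrees of freedom, and KO minus I53A as the contrast, Benjamini-Hochberg adjusted over all of them. Calls needed adjusted p under 0.05 and over 2-fold. WT arrays entered through the shared spread. Signals under an array's lowest well-above-background signal were raised to it for "at least" folds. Steps were tested on simulated data. Arrays give no read depth, and their number limits the precision.

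Gene symbols came from RefSeq (GRCm38.p6) through accessions: 26753 probes had 1 symbol, 97 several and 3320 none, and 98 whose symbol lay on another chromosome than the table's were left unnamed, among them the Gapdh probe. Lists were read by the brightest probe of each gene.

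Named genes were the 14 higher and 10 lower off chromosome 11 and the 5 higher on it with the largest bounded difference (no lower gene qualified on it), up to 4 called members per list and a set of Polycomb, pluripotency and sex-linked genes. A few of these genes are not reported here. Other genes were named after their values were seen. Members, lists and tests were chosen with earlier results of these data known. Groups came from sample titles, since the source labels of all 3 KO samples carry the same replicate number. Alternatives covered scaling, background correction (normexp on median signals, offset 50), a filter on dim probes, slide and replicate blocks, the 6 mutant arrays alone, treat, and leaving out each array.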

Additional observations from a re-analysis of the deposited data

How the results depend on the processing

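Counts below are probes higher off chromosome 11, lower off it and higher on it (217, 111 and 72 as reported), then genes called in the lists (71). Deposited values gave 218, 111, 71 and 70, and 75th percentile scaling 211, 73, 80 and 59. Normexp correction gave 79, 30, 22 and 30, a filter on dim probes 294, 177, 107 and 94, the 6 mutant arrays alone 139, 33, 41 and 42, the slide as a block 187, 94, 66 and 61, slide 1 alone 52, 2, 9 and 18, and treat against 1.2-fold 146, 39, 42 and 45. Subtracting the chromosome 11 median gave 208, 107, 40 and 67. Probes lower on chromosome 11, 0 as reported, were 1 with normexp, 4 with the dim filter, 1 with the slide block and 8 with the median subtracted. WT was nearer to I53A in 90.2% of called probes, 94.7% with normexp and 84.9% with the dim filter. Among probes outside the series table, 163 calls became 101 with normexp and 51 on slide 1. The cause of these moves was not tested, beyond the fewer samples of slide 1 and of the 6 arrays and the fewer probes of the dim filter.

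With the replicate number as a block, 127, 31, 36 and 38 were called, 93.8% with WT nearer to I53A, and 92 outside the table. The numbers do not pair the samples, since same-numbered KO and I53A arrays correlated at -0.22, -0.39 and 0.11 in their deviations.

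Leaving out 1 array gave 113 to 194 higher and 29 to 72 lower probes off chromosome 11, 31 to 60 higher and 0 to 1 lower on it, 34 to 61 list genes, 87.2% to 93.8% nearer to I53A, 99 to 150 calls outside the table and a chromosome 11 shift of 0.424 to 0.445. Without KO 2, KO 3, I53A 1 or I53A 2 the higher probes moved by over 1.5 times (113, 119, 118 and 120), those on chromosome 11 too (34, 34, 33 and 31), and calls outside the table as well (100, 102, 99 and 99). Lower probes did so whichever array was left out, and list genes did so without KO 2, KO 3, I53A 1 or I53A 2 (39, 37, 38 and 34) and without KO 1 (47). The shift was 0.245 over all probes, 0.472 with 75th percentile scaling, 0.367 as per-probe differences and 0.425 on slide 1.

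Of 69 named probes called, 21 kept their call under all 17 settings, 35 under all 9 that leave out an array, and none reversed. Differences that were near 0 did: Ring1 (-0.10) was 0.00 with normexp and -0.63 to 0.47 with 1 array left out, above 0 without KO 3 (0.47) or I53A 3 (0.07), Rybp (0.09) -0.04 with normexp, -0.13 on slide 1 and -0.05 to 0.32 with 1 array left out, below 0 without KO 1 (-0.05) or KO 2 (-0.01), and Ezh2 (-0.22) was -0.51 to 0.04, above 0 without I53A 2.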
